A study of Homo sapiens with 6 samples.

Results

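The genes described here are 53 that carry a dividing cell from the end of G2 through mitosis to cytokinesis. They come from a list chosen with earlier results of these data known, and were matched by symbol to 53 of 58051 gene rows in the count table. Kinesin motors and the genes that load CENP-A were left out of the list. PolyA RNA was sequenced from U2OS cells, an established human osteosarcoma line, after transfection with a scrambled siRNA (siSCR, 3 libraries) or with one directed at SURF2 (siSURF2, 3 libraries). All cells grew with 10% fetal bovine serum and received 2 transfections spaced 49 h apart, and the siRNA treatment lasted 96 h. The series title describes SURF2 as acting against MDM2 under nucleolar stress, and the comparison asked how mRNA levels differed once SURF2 was lowered. Nothing in the labels tells separate cultures from repeat libraries of 1 culture, so the p-values cover only the variation among these 6 libraries, and that variation may be technical.

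As background, mitosis is entered when cyclin A and cyclin B activate the kinase CDK1, which the CDC25 phosphatases switch on. Chromosomes are condensed, kinetochores bind spindle microtubules, and the spindle checkpoint holds the anaphase-promoting complex (APC/C) inactive until every kinetochore is attached. APC/C bound to CDC20 then marks securin and cyclin B for destruction, separase cuts cohesin, and the cell divides by cytokinesis. The mRNAs of many, though not all, of these genes peak in G2 and mitosis through B-MYB, FOXM1 and the MuvB core. In resting cells or after p53 activation the DREAM complex represses many of the genes, often through a promoter element called CHR. In bulk libraries, a smaller share of cells in G2 and mitosis and less RNA of these genes per cell cannot be told apart.

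Levels are given in CPM, read counts scaled to library size with TMM factors, and the values of a group are always in the order of replicates 1, 2 and 3. SURF2, the siRNA target, was at 36.2, 35.8 and 32.3 CPM in the siSCR libraries and at 3.74, 3.56 and 3.20 CPM in the siSURF2 libraries. Its log2 fold change was -3.31 ± 0.10 (SE; edgeR adjusted p = 3.7e-20). Counts assigned to genes ranged from 17123333 to 19688089 per library. Replicate 2 of siSURF2 stood apart from siSURF2 replicates 1 and 3, since chi-square over its degrees of freedom was 8.87 and 10.3 for the pairs with it and 2.87 for the pair without it. The mitochondrially encoded share of counts was 3.15%, 3.50% and 2.91% in siSCR and 4.70%, 2.73% and 4.74% in siSURF2, so siSURF2 replicates 1 and 3 lay above all siSCR libraries and replicate 2 below them. Of 11 mesenchymal and osteoblast markers, 5 stayed under 1 CPM in all 6 libraries: COL1A2, TWIST1, SP7, BGLAP and IBSP. VIM (1964 CPM in siSCR and 2014 CPM in siSURF2) and RUNX2 (22.8 and 23.1 CPM) were present and not called. COL1A1, PRRX1 and SPP1 were called higher (log2 fold changes of 0.43, 1.17 and 1.67) and ALPL lower (-2.07). The 11 markers summed to 2107 to 2208 CPM in siSCR and 2233 to 2367 CPM in siSURF2, without overlap. Most of that sum was VIM, whose groups overlapped, while COL1A1 was at 167 CPM in siSCR and 226 CPM in siSURF2. Of the other cell types, 5 of 6 blood markers stayed under 1 CPM in every library and CD3E and HBB were at 0. The summed blood markers were at 6.62 to 7.17 CPM in siSCR and 5.90 to 6.50 CPM in siSURF2, nearly all from ITGAM, and the 4 endothelial markers at 4.40 to 5.39 and 3.25 to 4.40 CPM. The 8 epithelial markers summed to 1482 to 1609 CPM in siSCR and 1036 to 1113 CPM in siSURF2, mostly from KRT8 and KRT18. Of the 6 epithelial markers tested, 3 were called lower (KRT8, KRT18 and CDH1) and 2 higher, EPCAM from 4.41 to 8.74 CPM and CLDN4 from 16.3 to 34.3 CPM. The part of these differences in the results below was not tested.

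Mitotic genes were lower with siSURF2 at every step of mitosis, mostly by a modest amount. Of the 53 genes, all of which passed the filter on low counts, 41 fell, 0 rose and 12 stayed short of the threshold (edgeR, Benjamini-Hochberg adjusted p under 0.05 over 17561 genes tested). Over all genes tested, 26.2% were called lower and 25.8% higher. The median log2 fold change of the 53 genes was -0.26, against 0.00 over all genes tested, and the middle of their range was narrow (quartiles of -0.36 and -0.16, against -0.27 and 0.31 over all genes). No member was as much as 2-fold lower. A mean at least 1.5-fold lower was reached by 4 of them, MAD2L1, ZWINT, CDC20 and TOP2A (7.55% of the members), while 8.83% of all genes tested were called lower by that much. TOP2A lay just past that size, at 66.6% of its siSCR level, and NDC80 just short of it, at 67.8%. Every siSURF2 library was below every siSCR library for 41 members (those called, with TTK in place of SMC2), against 28.6% of all genes tested, and every siSURF2 library was above for 0 members, against 28.6% of all genes tested.

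These counts rest on scaling by the bulk of the genes. With library sizes set by the totals of the ERCC spike-ins, only MAD2L1 was called lower among the members, beside 4.7% of all genes tested, while the log2 fold changes of all 53 members were below 0 and their median was -0.31. The spike-ins held 1.72%, 1.59% and 1.12% of counts in siSCR and 1.57%, 1.72% and 1.27% in siSURF2, so their share differed more between replicates of 1 group than between the groups. Without siSURF2 replicate 2, the library that stood apart, 41 members were called lower, and without siSURF2 replicate 1 the count was 35. The counts of single members were large, with at least 418 reads in each library.

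**Figure D1:**
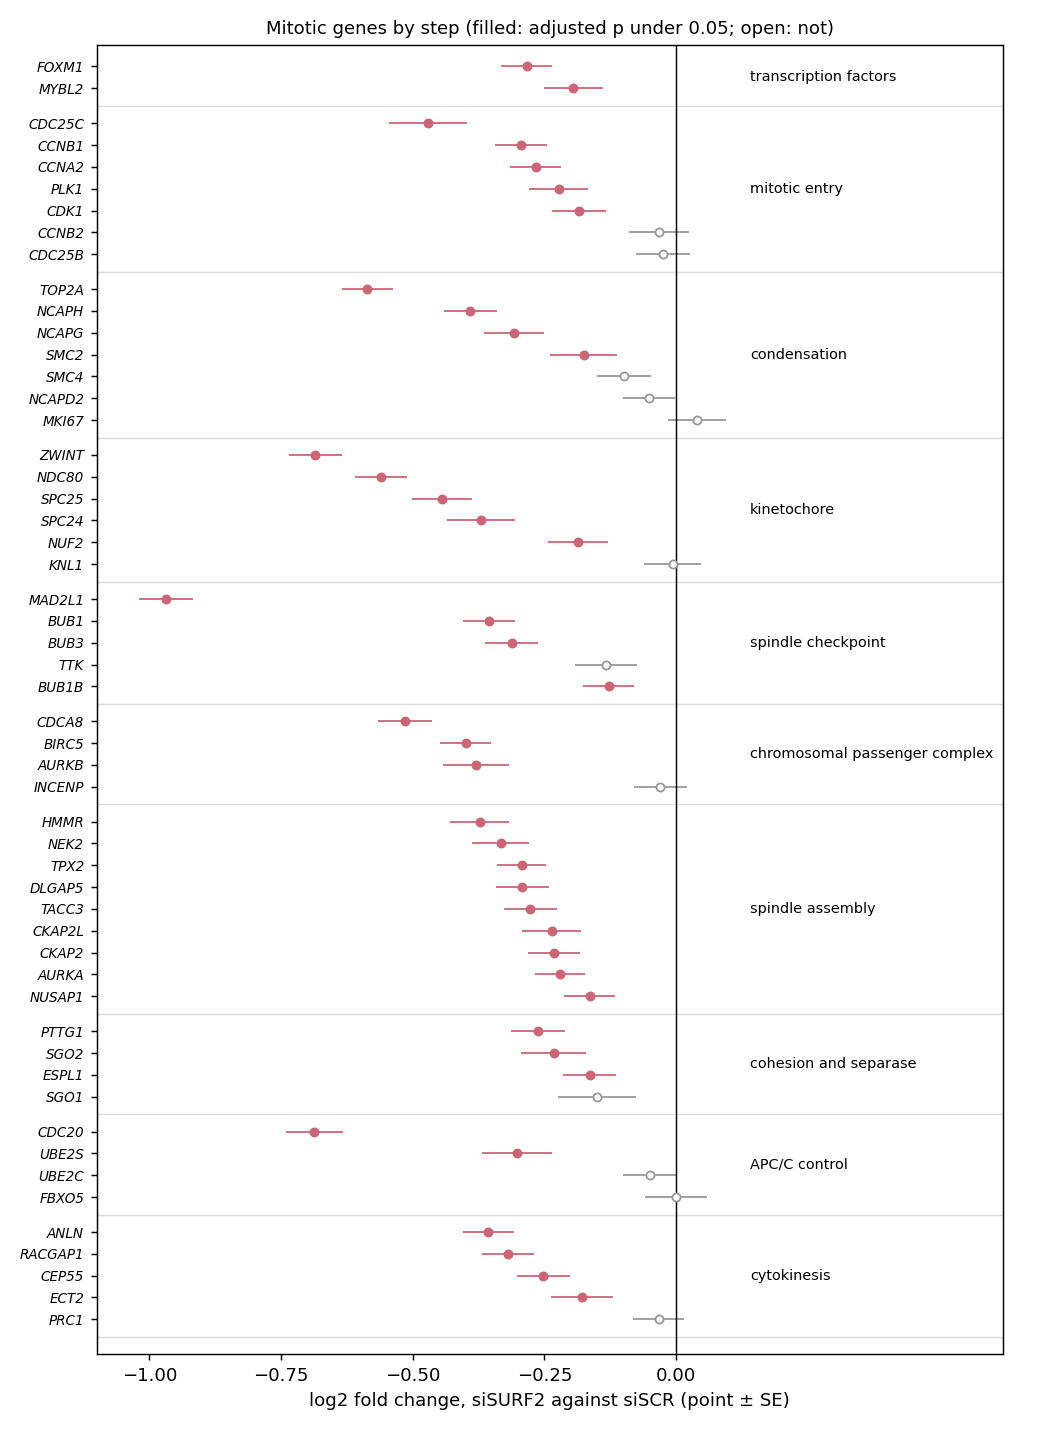
Log2 fold change with siSURF2 against siSCR (x axis, point ± SE from 3 libraries per group) for the 53 mitotic genes, grouped by step; filled points passed an adjusted p of 0.05 and open points did not. All filled points lie left of 0, MAD2L1 lies farthest left at -0.97, and 12 open points lie between -0.15 and 0.04.

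**Figure D2:**
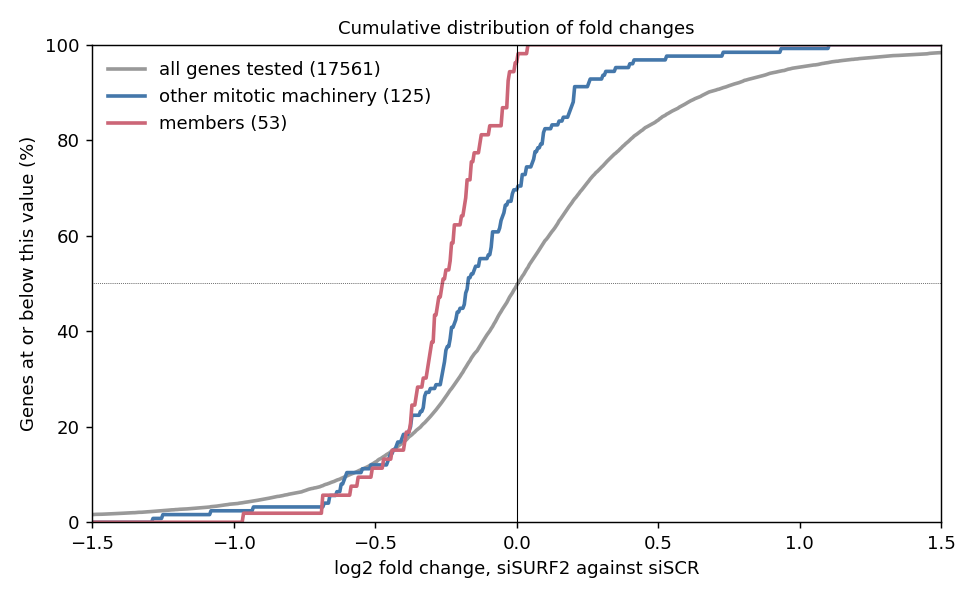
Share of genes (y axis, %) whose log2 fold change (x axis) is at or below each value, for the 53 members, 125 other genes of the mitotic machinery and 17561 genes tested. The curve of the members climbs steeply between -0.4 and 0, with a median of -0.26, while all genes spread evenly on both sides of 0.

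Since many G2 and mitosis promoters carry CCAAT boxes and a CHR element, the promoter windows of the members (RefSeq, GRCh38.p14, 250 bases before to 50 after the gene start) were searched for CCAAT and for TTTGAA, the common form of CHR, on both strands. Windows were found for 44 of the 53 genes and not for BUB3, TTK, AURKA, BIRC5, KNL1, TPX2, RACGAP1, FOXM1 and UBE2C. TTTGAA occurred in 29 of the 44 (65.9%), against 14.0% of 11910 genes tested that had a window and 18.2% of 27305 genes with one. CCAAT occurred in 34 (77.3%), against 42.3% of genes tested and 39.7% of all genes with a window, and at least 2 CCAAT matches in 1 window in 22 of them, against 15.7% and 12.9%. Both motifs lay in 1 window for 22 of the 44 members, against 5.71% of genes tested and 7.26% of all genes with a window. In the first window of each member, 25 of 38 TTTGAA matches began within 50 bases of the gene start, and 50 of 65 CCAAT matches began 20 to 150 bases before it. Of the members, 22 of 29 with TTTGAA and 13 of 15 without it fell, with medians of -0.22 and -0.28. Of those with both motifs in 1 window 16 of 22 fell, and of those with neither motif 3 of 3, with medians of -0.23 each. The windows of the 6 members with the smallest adjusted p that hold both motifs are printed 5′ to 3′ with the motifs in capitals (ATTGG and TTCAAA are the same motifs on the other strand), to show the arrangement in genes that fell. CCNB2, picked after its values were seen, is added as a gene with the same motifs that did not pass the threshold. NCAPD2, MKI67, PRC1, INCENP and FBXO5 also held both motifs in 1 window and did not pass.
MAD2L1: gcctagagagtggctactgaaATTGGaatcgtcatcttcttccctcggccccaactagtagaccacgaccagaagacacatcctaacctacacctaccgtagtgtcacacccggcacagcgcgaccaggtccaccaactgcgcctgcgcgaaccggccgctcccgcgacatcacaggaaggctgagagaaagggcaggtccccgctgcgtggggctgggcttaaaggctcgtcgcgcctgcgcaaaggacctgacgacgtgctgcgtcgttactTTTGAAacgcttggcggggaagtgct
ZWINT: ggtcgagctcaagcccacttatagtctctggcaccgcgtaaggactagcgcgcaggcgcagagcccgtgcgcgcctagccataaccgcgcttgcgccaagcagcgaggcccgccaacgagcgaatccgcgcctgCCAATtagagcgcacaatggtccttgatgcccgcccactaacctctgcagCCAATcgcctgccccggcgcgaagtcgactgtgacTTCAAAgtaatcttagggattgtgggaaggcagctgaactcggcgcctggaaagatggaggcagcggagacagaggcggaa
CDC20: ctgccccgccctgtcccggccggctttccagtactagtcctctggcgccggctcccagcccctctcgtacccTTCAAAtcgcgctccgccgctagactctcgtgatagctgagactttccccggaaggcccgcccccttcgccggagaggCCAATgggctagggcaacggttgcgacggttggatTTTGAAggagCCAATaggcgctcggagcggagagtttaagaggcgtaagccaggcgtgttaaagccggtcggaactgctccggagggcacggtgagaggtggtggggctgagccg
TOP2A: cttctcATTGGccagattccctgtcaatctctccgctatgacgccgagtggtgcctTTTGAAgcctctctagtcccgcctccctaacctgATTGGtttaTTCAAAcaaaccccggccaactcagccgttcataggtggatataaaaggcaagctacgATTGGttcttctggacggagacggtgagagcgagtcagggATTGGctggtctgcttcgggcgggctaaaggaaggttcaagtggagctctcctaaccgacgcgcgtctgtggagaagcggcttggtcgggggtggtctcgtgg
CDCA8: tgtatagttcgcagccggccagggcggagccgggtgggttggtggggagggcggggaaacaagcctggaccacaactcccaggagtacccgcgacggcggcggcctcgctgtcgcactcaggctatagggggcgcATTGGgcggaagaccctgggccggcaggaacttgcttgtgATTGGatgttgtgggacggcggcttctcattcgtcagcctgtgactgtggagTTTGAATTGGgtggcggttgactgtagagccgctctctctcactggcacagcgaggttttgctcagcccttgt
SPC25: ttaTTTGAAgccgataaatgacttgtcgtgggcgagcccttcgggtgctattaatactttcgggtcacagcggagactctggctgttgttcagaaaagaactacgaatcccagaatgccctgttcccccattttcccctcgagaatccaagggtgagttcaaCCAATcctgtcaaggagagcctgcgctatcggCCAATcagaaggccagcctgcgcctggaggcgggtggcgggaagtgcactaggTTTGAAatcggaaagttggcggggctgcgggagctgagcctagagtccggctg
CCNB2: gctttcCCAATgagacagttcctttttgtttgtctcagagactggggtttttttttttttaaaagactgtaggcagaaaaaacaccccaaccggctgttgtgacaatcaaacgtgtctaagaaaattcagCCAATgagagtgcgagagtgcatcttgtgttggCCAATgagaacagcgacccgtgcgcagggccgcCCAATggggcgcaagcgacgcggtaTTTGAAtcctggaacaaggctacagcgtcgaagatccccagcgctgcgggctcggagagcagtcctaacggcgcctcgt
These windows are chr4:120066799-120067098 (minus strand) for MAD2L1, chr10:56361210-56361509 (minus strand) for ZWINT, chr1:43358731-43359030 (plus strand) for CDC20 and chr17:40417847-40418146 (minus strand) for TOP2A. They are chr1:37692266-37692565 (plus strand) for CDCA8, chr2:168890381-168890680 (minus strand) for SPC25 and chr15:59104896-59105195 (plus strand) for CCNB2. In ZWINT, CCAAT began 116 and 66 bases and the CHR letters 31 bases before the start, and in CCNB2, CCAAT began 120, 87 and 54 bases (and again 244 bases) and TTTGAA 29 bases before it. In CDCA8 the capitals merge because TTTGAA and a CCAAT on the other strand share a base. A match is a description of letters and not of a bound site.

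The 2 transcription factors of the program both fell slightly. FOXM1, which drives late cell cycle genes, was at 687, 694 and 665 CPM in siSCR and at 562, 582 and 537 CPM in siSURF2 (log2 fold change -0.28 ± 0.05, adjusted p = 1.5e-05). MYBL2, encoding B-MYB, was at 421, 423 and 394 CPM in siSCR and at 370.1, 386 and 325 CPM in siSURF2 (-0.20 ± 0.06, adjusted p = 0.0043). The groups did not overlap for either gene. MYBL2 was not called without siSURF2 replicate 3 (adjusted p = 0.056), in which it was lowest. FOXM1 shares 15.9% of its exon bases with ITFG2 on the opposite strand. The sources used here do not give the strand setting of the counts, so reads of such partners cannot be told apart, but ITFG2 held 2660 counts over the 6 libraries against 69696 for FOXM1.

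Of the 7 genes of mitotic entry, 5 fell and 2 did not pass. Counts for this and each other step stand beside 26.2% of all genes tested called lower. CDC25C, a phosphatase that activates CDK1, was at 30.1, 29.8 and 33.0 CPM in siSCR and at 23.2, 21.6 and 22.2 CPM in siSURF2 (-0.47 ± 0.07, adjusted p = 4.3e-06). Its paralog CDC25B, which acts earlier at the centrosome, was at 252, 243 and 245 CPM in siSCR and at 239.8, 259 and 229 CPM in siSURF2 (-0.03 ± 0.05, adjusted p = 0.71). The libraries overlapped for CDC25B and not for CDC25C, and the ratio of CDC25B to CDC25C per kb of exon, which needs no scaling between libraries, was 6.50, 6.31 and 5.76 in siSCR and 8.0, 9.27 and 7.98 in siSURF2. CDC25C shares 8.78% of its exon bases with the more abundant FAM53C on the opposite strand, so part of its reads cannot be assigned with certainty.

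The B-type cyclins, the partners of CDK1, differed in the same way. CCNB1 was at 436, 416 and 403 CPM in siSCR and at 329, 355 and 339.7 CPM in siSURF2 (-0.29 ± 0.05, adjusted p = 1.1e-05). CCNB2 was at 108, 107 and 123 CPM in siSCR and at 106, 111 and 113 CPM in siSURF2 (-0.03 ± 0.06, adjusted p = 0.66). The ratio of CCNB1 to CCNB2 per kb of exon was 4.43, 4.28 and 3.58 in siSCR and 3.39, 3.49 and 3.30 in siSURF2, without overlap but with siSCR replicate 3 close to the siSURF2 libraries. An exact permutation test of 3 libraries against 3 cannot give a two-sided p below 0.10, and ratios without overlap reach that value. CCNA2, cyclin A, fell from 211 ± 2.99 to 175 ± 6.66 CPM (SD, n = 3 each; -0.27 ± 0.05), CDK1 fell from 155 ± 4.92 to 137 ± 6.67 CPM (-0.18 ± 0.05) and PLK1, a kinase needed from entry to cytokinesis, from 144 ± 10.8 to 123 ± 5.34 CPM (-0.22 ± 0.06). CDK1 was not called without siSURF2 replicate 1 (adjusted p = 0.069), and CCNA2 shares 9.08% of its exon bases with EXOSC9 on the opposite strand, which held 7712 counts against 21661.

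Chromosome condensation was split between subunits. TOP2A, the topoisomerase that untangles sister DNA, was at 827, 851 and 901 CPM in siSCR and at 577, 579 and 562 CPM in siSURF2 (-0.59 ± 0.05, adjusted p = 4.7e-11). The non-SMC subunits of condensin I did not move together. NCAPH, which bridges the SMC arms, fell from 157 ± 4.83 to 119.5 ± 1.22 CPM (-0.39 ± 0.05), and NCAPG from 104 ± 7.92 to 84.1 ± 1.77 CPM (-0.31 ± 0.06), whereas NCAPD2 was at 1071 ± 26.6 and 1033 ± 57.4 CPM (SD, n = 3 each; -0.05 ± 0.05, adjusted p = 0.41). NCAPG shares 33.1% of its exon bases with LCORL on the opposite strand, which held 2054 counts against 10585 for NCAPG. NCAPD2 shares 7.49% with MRPL51 on the opposite strand, which held 28046 counts against 118384 for NCAPD2.

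The SMC subunits, which condensin I shares with condensin II, changed little. SMC2 was at 191, 213 and 222 CPM in siSCR and at 180.1, 205 and 170.3 CPM in siSURF2 (-0.18 ± 0.06, adjusted p = 0.026), with overlapping groups, and it was not called without any 1 of siSCR replicates 2 and 3 and siSURF2 replicates 1 and 3, nor with upper-quartile factors (adjusted p = 0.080) or with no factors (0.055). SMC4 had a log2 fold change of -0.10 ± 0.05 (adjusted p = 0.11, and 0.035 without siSURF2 replicate 2), and it shares 18.5% of its exon bases with TRIM59 on the opposite strand. The ratio of SMC2 to NCAPD2 per kb of exon was 0.181, 0.204 and 0.202 in siSCR and 0.174, 0.189 and 0.175 in siSURF2, with overlapping groups. MKI67, the proliferation marker Ki-67 that coats mitotic chromosomes, was at 479, 454 and 527 CPM in siSCR and at 532, 492 and 478 CPM in siSURF2 (0.04 ± 0.06, adjusted p = 0.58). Its groups overlapped, and siSURF2 replicate 1 was the highest of all 6 libraries. Of the 7 condensation genes, 4 fell and 3 did not pass.

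At the kinetochore, 5 of 6 genes fell and the subunits of the NDC80 complex, which holds microtubules, fell unequally. ZWINT, which links the outer kinetochore to the checkpoint, was at 220.1, 219.6 and 204 CPM in siSCR and at 133, 136 and 131 CPM in siSURF2 (-0.69 ± 0.05, adjusted p = 3.6e-12). NDC80 was at 223, 234 and 239 CPM in siSCR and at 153, 162 and 157 CPM in siSURF2 (-0.56 ± 0.05, adjusted p = 1.5e-10). Both genes had siSURF2 libraries close together and well below siSCR. SPC25 fell from 65.5 ± 0.940 to 48.1 ± 0.457 CPM (-0.44 ± 0.06) and SPC24 from 44.7 ± 2.43 to 34.6 ± 0.649 CPM (-0.37 ± 0.06). NUF2, the direct partner of NDC80, fell less, from 79.3, 76.7 and 81.2 CPM to 64.9, 69.2 and 74.2 CPM (-0.19 ± 0.06, adjusted p = 0.0081), and it was not called without siSURF2 replicate 1 (0.12). The ratio of NUF2 to SPC25 per kb of exon was 0.668, 0.647 and 0.668 in siSCR and 0.745, 0.789 and 0.835 in siSURF2. KNL1, the scaffold that recruits BUB1 to kinetochores, was at 137, 143 and 156 CPM in siSCR and at 144, 151 and 139 CPM in siSURF2 (-0.01 ± 0.05, adjusted p = 0.93), with overlapping groups.

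The spindle checkpoint held the member with the lowest fold change. MAD2L1, encoding MAD2, the protein that sequesters CDC20 (ENSG00000164109, chromosome 4 at 120055608 to 120067074, GRCh38), was at 147, 147 and 145 CPM in siSCR and at 72.3, 75.9 and 75.7 CPM in siSURF2. This was 51.1% of the siSCR level (-0.97 ± 0.05, adjusted p = 4.3e-15). MAD2L1 was called lower under all 15 alternative settings tried, with log2 fold changes of -1.01 to -0.92 and adjusted p of at most 0.0032. BUB3, which docks BUB1 and BUBR1 at kinetochores, fell from 229.8 ± 4.05 to 185 ± 9.72 CPM (-0.31 ± 0.05), and BUB1, a checkpoint kinase, from 185 ± 3.76 to 145 ± 5.00 CPM (-0.35 ± 0.05). The ratio of MAD2L1 to BUB3 per kb of exon was 0.937, 0.926 and 0.892 in siSCR and 0.588, 0.604 and 0.558 in siSURF2, so MAD2L1 mRNA dropped relative to another checkpoint gene within each library. BUB1B, encoding BUBR1, was at 142, 141 and 143 CPM in siSCR and at 130.2, 129 and 130.2 CPM in siSURF2 (-0.13 ± 0.05, adjusted p = 0.029). The groups did not overlap for BUB1B, but its adjusted p was between 0.059 and 0.15 without siSCR replicate 2, without each siSURF2 replicate, without the filter, with upper-quartile factors and with no factors. TTK, the kinase MPS1 that starts checkpoint signalling, was at 55.3, 54.4 and 58.1 CPM in siSCR and at 49.3, 52.5 and 51.3 CPM in siSURF2, which did not pass the threshold although the groups did not overlap (-0.13 ± 0.06, adjusted p = 0.060).

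Of the chromosomal passenger complex, which corrects wrong attachments and later directs cytokinesis, 3 of 4 genes fell. CDCA8, encoding borealin, was at 125, 119 and 120.3 CPM in siSCR and at 83.8, 87.5 and 84.0 CPM in siSURF2 (-0.51 ± 0.05, adjusted p = 2.0e-09). BIRC5, encoding survivin, fell from 362 ± 10.7 to 274 ± 8.12 CPM (-0.40 ± 0.05), and AURKB, the kinase subunit, from 71.9 ± 5.71 to 55.3 ± 2.71 CPM (-0.38 ± 0.06). INCENP, the scaffold that activates the kinase, was at 179, 173 and 162 CPM in siSCR and at 169, 168 and 166 CPM in siSURF2 (-0.03 ± 0.05, adjusted p = 0.65). The libraries overlapped for INCENP, and the ratio of AURKB to INCENP per kb of exon was 0.864, 0.834 and 0.816 in siSCR and 0.670, 0.676 and 0.627 in siSURF2.

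**Figure D3:**
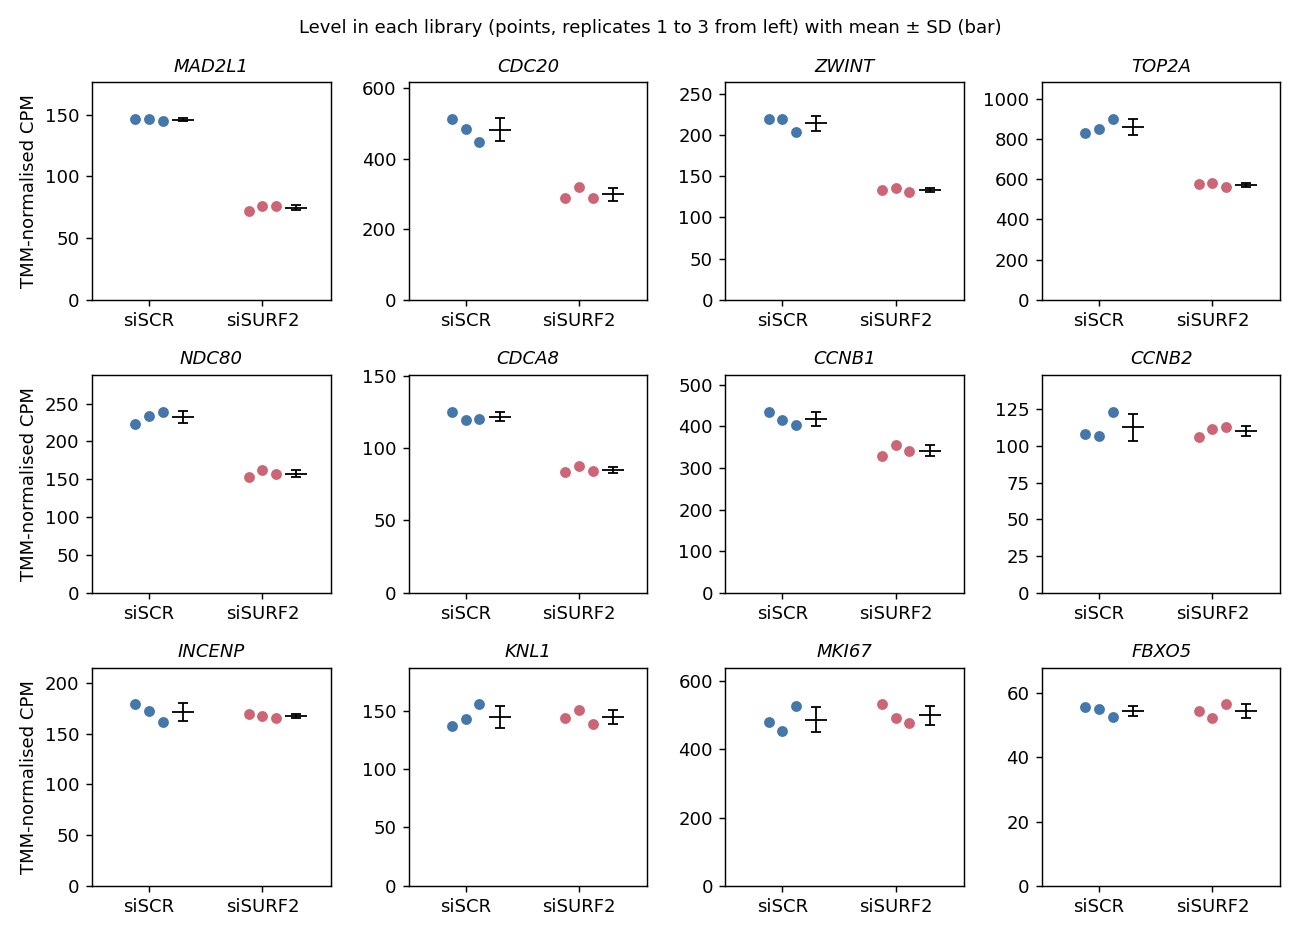
TMM-normalised CPM (y axis, from 0) in each of the 3 siSCR and 3 siSURF2 libraries (points) with mean ± SD (bar) for 12 of the members. The siSURF2 points lie below all siSCR points for MAD2L1, CDC20, ZWINT, TOP2A, NDC80, CDCA8 and CCNB1, and among them for CCNB2, INCENP, KNL1, MKI67 and FBXO5.

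In spindle assembly all 9 genes fell, with log2 fold changes of -0.37 to -0.16. HMMR, which positions the spindle, was at 161, 167 and 174 CPM in siSCR and at 121, 141 and 126 CPM in siSURF2 (-0.37 ± 0.06, adjusted p = 2.3e-06). NEK2, a centrosome kinase, fell from 99.5 ± 3.24 to 78.9 ± 2.60 CPM (-0.33 ± 0.05), and its 3 pseudogenes with counts, NEK2P1, NEK2P2 and NEK2P4, held 1.15%, 1.82% and 1.14% as many counts as NEK2. TPX2, which activates Aurora A on the spindle, fell from 469 ± 8.67 to 383 ± 4.79 CPM (-0.29 ± 0.05), and AURKA, that kinase itself, from 208 ± 2.79 to 178 ± 2.68 CPM (-0.22 ± 0.05). DLGAP5 and TACC3, which stabilise spindle fibres, fell by 0.29 ± 0.05 and by 0.28 ± 0.05 on the log2 scale, CKAP2L by 0.24 ± 0.06, CKAP2 by 0.23 ± 0.05 and the microtubule bundler NUSAP1 by 0.16 ± 0.05. For all 9 genes the groups did not overlap, and NUSAP1 was the one not called without siSURF2 replicate 1 (adjusted p = 0.064).

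Of the 4 genes of sister chromatid cohesion and separase, 3 fell by small amounts and 1 did not pass. PTTG1, encoding securin, the inhibitor of separase, was at 124, 118 and 120.2 CPM in siSCR and at 104, 96.7 and 101 CPM in siSURF2 (-0.26 ± 0.05, adjusted p = 1.1e-04). Its near-identical copies PTTG2 and PTTG3P held 0.072% and 0.12% as many counts. ESPL1, separase itself, fell from 121 ± 0.758 to 108 ± 3.93 CPM (-0.16 ± 0.05), and was not called without siSURF2 replicate 3 (adjusted p = 0.056). The shugoshins protect cohesin at centromeres: SGO2 fell from 87.3 ± 2.35 to 74.3 ± 7.10 CPM (-0.23 ± 0.06), and SGO1 was at 26.5, 27.8 and 29.9 CPM in siSCR and at 24.6, 26.5 and 24.8 CPM in siSURF2 (-0.15 ± 0.07, adjusted p = 0.090, and 0.042 without siSCR replicate 1).

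Among the regulators of APC/C, 2 of 4 genes fell. CDC20, its activator at anaphase, was at 514, 484 and 448 CPM in siSCR and at 289, 321 and 288 CPM in siSURF2, a 1.61-fold lower level (-0.69 ± 0.06, adjusted p = 3.1e-11). Its pseudogene CDC20P1 held 3.97% as many counts. UBE2S, which extends ubiquitin chains, was at 298, 259 and 232 CPM in siSCR and at 210.5, 213 and 215 CPM in siSURF2 (-0.30 ± 0.07, adjusted p = 7.6e-04), with siSCR replicate 3 near the siSURF2 libraries. UBE2C, which starts those chains, was at 109, 109 and 106 CPM in siSCR and at 106, 104 and 103 CPM in siSURF2 (-0.05 ± 0.05, adjusted p = 0.43). FBXO5, encoding the APC/C inhibitor EMI1, was at 55.7, 55.0 and 52.7 CPM in siSCR and at 54.6, 52.3 and 56.5 CPM in siSURF2 (0.00 ± 0.06, adjusted p = 1.00). The ratio of FBXO5 to CDC20 per kb of exon was 0.0576, 0.0605 and 0.0626 in siSCR and 0.101, 0.0866 and 0.104 in siSURF2. This followed the lower CDC20 level, as FBXO5 itself was not called.

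In cytokinesis, 4 of 5 genes fell. ANLN, encoding the furrow protein anillin, was at 583, 619.7 and 604 CPM in siSCR and at 458, 489.6 and 463 CPM in siSURF2 (-0.36 ± 0.05, adjusted p = 4.8e-07). RACGAP1, of the centralspindlin complex, fell from 216 ± 8.83 to 173 ± 1.13 CPM (-0.32 ± 0.05), and CEP55, which recruits the abscission machinery to the midbody, from 326 ± 10.5 to 274 ± 16.1 CPM (-0.25 ± 0.05). ECT2, the activator of RhoA in the furrow, fell from 70.5 ± 1.41 to 62.3 ± 4.29 CPM (-0.18 ± 0.06, adjusted p = 0.013), but was not called without siSURF2 replicate 1 (0.16) or with upper-quartile factors (0.051). PRC1, which bundles the central spindle, was at 147, 144 and 147 CPM in siSCR and at 142, 141 and 144 CPM in siSURF2 (-0.03 ± 0.05, adjusted p = 0.60). PRC1 shares 57.6% of its exon bases with another annotated gene on the same strand that held 0 counts, and NUSAP1 likewise 62.2%. With the counting tool unknown, it cannot be told whether reads in these shared exons were counted.

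Summed over all 53 genes, expression came to 12315, 12263 and 12404 CPM in siSCR and to 10159, 10551 and 9995 CPM in siSURF2. The siSURF2 mean was 83.0% of the siSCR mean, and the groups did not overlap (exact permutation test, two-sided p = 0.10, the smallest that 3 libraries against 3 can give). By step, the summed siSURF2 level was lowest for the APC/C regulators (74.0% of siSCR), the kinetochore (75.2%) and the checkpoint (77.1%), and highest for mitotic entry (87.3%) and condensation (87.2%). Each of these sums is led by its most abundant genes: the checkpoint sum by BUB3 and BUB1, the APC/C sum by CDC20 and the condensation sum by NCAPD2. The median log2 fold change was lowest for the kinetochore (-0.41) and the passenger complex (-0.39) and highest for condensation and APC/C control (both -0.18). With 2 to 9 genes in a step, whether steps differ from one another was not tested.

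**Figure D4:**
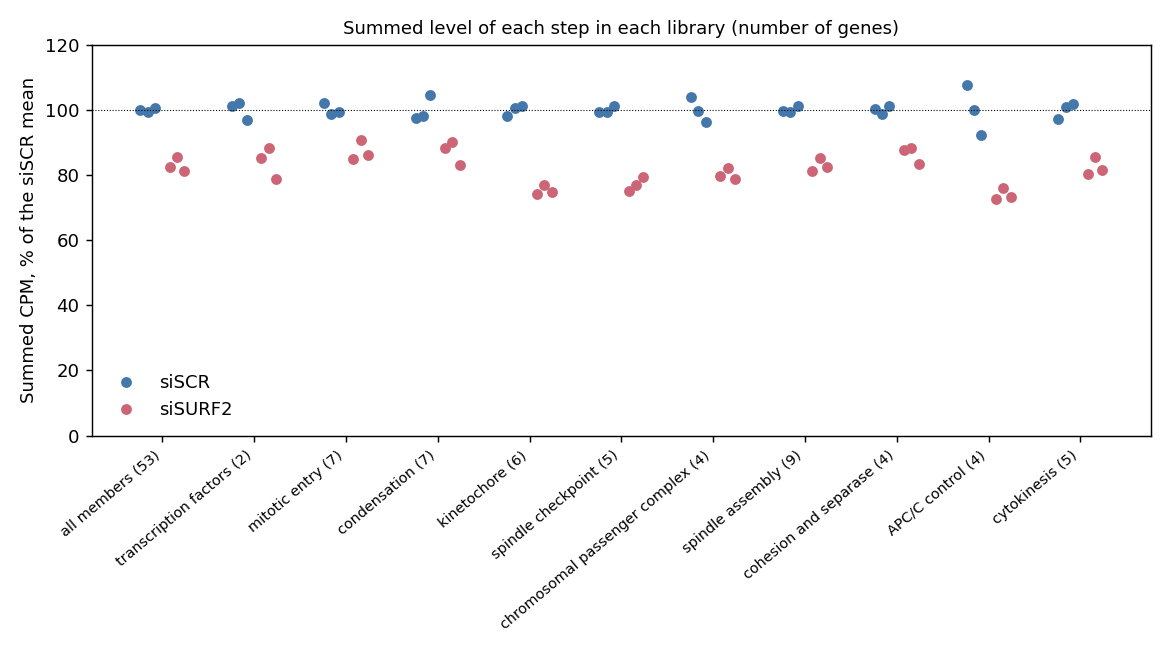
Summed CPM of all members and of each step in every library, as a percentage of the siSCR mean (y axis, from 0; number of genes in brackets). The siSURF2 points lie below the siSCR points at all 10 steps, between 74.0% and 87.3% of siSCR on average.

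Levels and responses were only loosely linked among the members. Per kb of exon, siSCR levels ran from 7.33 CPM for SGO1 to 236.5 CPM for CDC20. Across the 53 genes, Spearman's rho between the log2 fold change and the siSCR level per kb was -0.24, and between the log2 fold change and exon length 0.31 (descriptions across genes that share the same 6 libraries). Genes of like exon length could differ in the size of the change: TOP2A (6437 bases) fell by 0.59 on the log2 scale. NCAPD2 (6487 bases) had a log2 fold change of -0.05 and did not pass the threshold.

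Other genes of the mitotic machinery, from lists of 125 genes that are not members, moved less uniformly. Of these, 66 fell (52.8%), 19 rose (15.2%) and 40 passed in neither direction, with a median log2 fold change of -0.17. Counts here and in each list below stand beside 26.2% of all genes tested called lower and 25.8% called higher. In every list but that of the MuvB and DREAM genes, the share called higher was below 25.8%, from 5.88% to 22.2%. Of 17 other checkpoint and kinetochore genes, 12 fell and 1 rose. RCC1, which makes the RanGTP that guides spindle assembly, fell from 182 ± 5.42 to 76.2 ± 4.69 CPM (-1.25 ± 0.05), SKA3 of the outer kinetochore fell by 0.45 ± 0.06 on the log2 scale, and BOD1 rose by 0.25 ± 0.06. Of 18 entry kinases, phosphatases and their regulators, 12 fell and 4 rose. MASTL, the Greatwall kinase, and CDC25A, the phosphatase of S phase and entry, both fell to 63.1% of siSCR (-0.66 ± 0.06 each), while PPP2R2D, a regulatory subunit of the opposing phosphatase PP2A, rose by 0.53 ± 0.07 and CCNB1IP1 by 0.93 ± 0.08.

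Of 15 genes for APC/C subunits or for FZR1, its activator in G1, 6 fell and 2 rose, with a median of -0.04. CDC23 and CDC27 fell by 0.61 ± 0.06 and by 0.40 ± 0.05 on the log2 scale, and FZR1 and ANAPC13 rose by 0.26 ± 0.07 and 0.19 ± 0.06. Of 17 condensin II and cohesin genes, 9 fell and 2 rose: the cohesin subunit STAG1 fell by 0.60 ± 0.05 and CDCA5, encoding sororin, by 0.41 ± 0.05, while the cohesin loader NIPBL rose by 0.18 ± 0.06 and the acetyltransferase ESCO1 by 0.20 ± 0.08. Of 27 spindle pole, augmin and microtubule genes, 14 fell and 3 rose. KNSTRN and PSRC1 fell by 0.62 ± 0.05 and by 0.64 ± 0.06, and NUMA1, which anchors dynein at spindle poles, and NEDD1 rose by 0.40 ± 0.05 and 0.20 ± 0.07. Of 20 furrow and abscission genes, 9 fell and 3 rose. VPS4B, an ATPase of the ESCRT machinery, fell from 52.6 ± 1.76 to 21.5 ± 0.614 CPM (-1.29 ± 0.07) and SEPTIN11 fell by 1.08 ± 0.05, while the ESCRT-III subunits CHMP4C and CHMP4B rose by 0.41 ± 0.09 and 0.20 ± 0.06.

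The MuvB and DREAM genes, whose complexes repress or activate the mitotic genes, were called in both directions, with 4 of 11 lower, 4 higher and a median of 0.10, near the shares over all genes tested (26.2% lower and 25.8% higher). RBL2, the pocket protein p130 of DREAM, rose from 59.4 ± 3.04 to 98.4 ± 2.45 CPM (0.73 ± 0.06) and the E2F partner TFDP1 by 0.35 ± 0.05, while LIN52 and RBBP4 of MuvB fell by 0.61 ± 0.07 and by 0.32 ± 0.05. CDKN1A, the p53 target p21 that keeps DREAM assembled, was at 194, 173 and 163 CPM in siSCR and at 279, 291 and 276 CPM in siSURF2 (0.68 ± 0.06, adjusted p = 5.4e-11). E2F7, another p53 target and a repressor of cell cycle genes, was at 33.2, 36.4 and 38.6 CPM in siSCR and at 78.9, 80.4 and 81.1 CPM in siSURF2 (1.15 ± 0.06, adjusted p = 5.6e-15). For both genes every siSURF2 library was above every siSCR library, and their part in the levels of the mitotic genes was not tested.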

How the data were processed

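The authors deposited 1 table of raw counts for 6 libraries, with 58051 Ensembl gene rows and 92 ERCC spike-in rows. Per the submitters' processing notes the build was GRCh38 and the tools include fastp 0.23.1 and STAR 2.5.2b, while the sources used here name no counting tool, annotation or strand setting. Columns were matched to samples by name. Gene IDs were turned into symbols with a names table, and exon lengths and coordinates were taken from GENCODE release 29.

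Spike-in rows entered neither the library sizes nor the tests. Genes were filtered with filterByExpr (minimum count 10, minimum total 15), which left 17561, scaled with TMM factors and tested with edgeR 4.0.16 (quasi-likelihood F-test, robust, group as the only term) in R 4.3.3. Log2 fold changes include edgeR's prior count, and standard errors are the fold change without it divided by the square root of F. CPM values are given per library or as mean ± SD. Summed levels and ratios were computed per library from CPM. A ratio restates the levels of its genes and is no separate evidence of a difference. The program was tested on simulated data.

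Members, steps and lists were chosen with earlier results of these data known. The genes named are all members, SURF2, CDKN1A, E2F7 and, of each other list, up to 2 genes per direction with the smallest adjusted p. Alternatives were RLE, upper-quartile, no and spike-in scaling, 2 other filters, DESeq2 1.42.0, limma-voom (limma 3.58.1), a replicate block and leaving out each library.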

Additional observations from a re-analysis of the deposited data

How the results depend on the processing

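With RLE factors, a filter at 1 CPM, DESeq2, limma-voom and the replicate block, 41 members were called lower and none higher, and the count was 40 without a filter, 39 with no factors and 38 with upper-quartile factors. No setting called a member higher. Upper-quartile factors moved the members' median log2 fold change to -0.22. With ERCC spike-in totals, 1 member was called lower (1 in the checkpoint step and 0 in each of the other 9 steps), with a median of -0.31, and the summed level was 80.3% of siSCR. The cause was not tested. Leaving out 1 library at a time gave 35 to 42 members called lower, medians of -0.30 to -0.22 and 1 to 2 transcription factors called lower. The values moved to the other side of 0 only for members that passed no threshold. With upper-quartile factors these were INCENP (0.016), CCNB2 (0.013), CDC25B (0.020), KNL1 (0.039) and PRC1 (0.013). They were CDC25B (0.0004) and KNL1 (0.019) with no factors, MKI67 (-0.023) and FBXO5 (-0.030) with spike-in totals, and KNL1 (0.013) without a filter. Over the 6 fits that each left out 1 library, the values spanned 0 for MKI67 (-0.0003 to 0.092), CCNB2 (-0.073 to 0.030), KNL1 (-0.056 to 0.037), CDC25B (-0.075 to 0.017) and FBXO5 (-0.032 to 0.029). Libraries with the same replicate number did not deviate together from their group means (correlations of 0.004, -0.092 and -0.039), and the replicate block left the count at 41. With so few libraries this cannot exclude that the numbers pair them. Every member had at least 418 counts in each library, and counting error is relatively largest for the least abundant, such as CDC25C and SGO1.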
